A study of Mus musculus with 9 samples.

Results

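Arginine use and polyamine synthesis are described here through 10 genes: the arginases Arg1 and Arg2, the inducible nitric oxide synthase Nos2, the cationic amino acid transporters Slc7a1 and Slc7a2, ornithine decarboxylase Odc1, the antizyme inhibitors Azin1 and Azin2, and the polyamine synthases Srm and Sms. They were taken by gene symbol from a deposited expression table of 26157 genes, and all 10 were found in it. Poly-A RNA had been sequenced from J774A.1 cells, a mouse macrophage line derived from a BALB/c tumour. Of 9 libraries, 3 came from cells that received Q11 along with IL-4 and IL-13 (Q11), 3 from cells that received the 2 cytokines at 10 ng/mL (M2), and 3 from untreated cells (control). The series title calls Q11 a CYP2E1 inhibitor, CYP2E1 being a cytochrome P450 enzyme. The sources used here state the cytokine dose for M2 cells only and give neither the dose of Q11 nor any treatment time, and no cells given Q11 without cytokines are analysed here. All groups are 1 cell line, and separate cultures are not named in the labels, so p-values measure the spread between these libraries, which may be technical.

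Macrophages take up arginine through the cationic transporters and can either oxidise it to nitric oxide and citrulline with Nos2 or split it into urea and ornithine with an arginase. Odc1 decarboxylates ornithine to putrescine, Srm extends putrescine to spermidine, and Sms extends spermidine to spermine. Antizymes bind Odc1 and send it to the proteasome, while Azin1 and Azin2 resemble Odc1, lack its activity and bind antizymes in its place. In mouse macrophages Arg1 is a known IL-4 target and a standard marker of the M2 state, and Nos2 is a standard marker of the inflammatory state.

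TPM are transcript levels per exon length, scaled so that each library sums to 1000000. Whole reads could be recovered from the TPM, 15815846 to 17095786 in 8 libraries and 32193523 in Q11 replicate 2. Of 19252 genes read in Q11 replicate 3, only 11 had fewer reads in Q11 replicate 2, whereas 1929 to 2413 genes had fewer reads there than in each of the other 7 libraries. The results are therefore also given with the reads of replicate 3 subtracted from replicate 2, called "separated" here, which leaves 15336276 reads in it. Whether the file of replicate 2 also holds the reads of replicate 3 was not tested. If it does, the Q11 libraries as deposited are not independent, and their SDs and fits would understate the spread, as in the share of Slc7a2 among both transporters, whose SD was 0.494 percentage points as deposited and 0.943 separated. All 8 macrophage markers had a mean of at least 1 TPM, and their summed level was 7106 to 7186 TPM in Q11 cells, 6816 to 7365 TPM in M2 cells and 10258 to 10646 TPM in control cells. Among them, Lyz2 was at 3694 to 3766 TPM in Q11 cells, 3343 to 3766 TPM in M2 cells and 6698 to 7140 TPM in control cells. Cd68 was at 2430 to 2653 TPM over all libraries without such a gap. Ptprc was also lower, at 68.9 to 74.7 TPM in Q11 and M2 libraries and 88.1 to 91.6 TPM in control libraries. The same held for Itgam, at 79.3 to 107 TPM and 113 to 128 TPM. Csf1r was below all control libraries in Q11 cells only. Spi1, Fcgr1 and Adgre1 overlapped with control cells in both groups. Of markers of other cell types, 0 of 2 T cell, 0 of 4 B cell and 0 of 2 fibroblast genes in the table reached a mean of 1 TPM, while 1 of 3 endothelial genes (Cdh5) and 1 of 2 granulocyte genes (S100a8) did. The summed granulocyte markers were at 16.1 to 19.0 TPM in Q11 cells, 17.2 to 29.2 TPM in M2 cells and 29.3 to 38.0 TPM in control cells, the 4 epithelial and hepatocyte markers were not analysed here, and the part of these marker levels in the results was not tested. In bulk RNA, fewer cells expressing a gene and less of its RNA per cell cannot be told apart.

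Several of the genes are relatives, and reads must tell them apart by their differences. For Azin2 and Odc1, 81 coding bases placed around their longest shared run are shown. Both are read 5′ to 3′ on the coding strand from GRCm38 with the GENCODE M21 annotation, each within 1 coding exon. The windows lie at chr4:128950653-128950733 (minus strand) for Azin2 and chr12:17547989-17548069 (plus) for Odc1. Capitals mark the 55 bases that both genes share.
Azin2: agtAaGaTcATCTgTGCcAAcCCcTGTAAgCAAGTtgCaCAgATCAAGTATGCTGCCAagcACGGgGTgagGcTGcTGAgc
Odc1: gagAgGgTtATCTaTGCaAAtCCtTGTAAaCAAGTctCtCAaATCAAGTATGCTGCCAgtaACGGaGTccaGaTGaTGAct

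Over the aligned bases of the coding sequences, with gaps left out, Azin2 was 61.3% identical to Azin1 and 64.9% identical to Odc1. Its longest shared runs with them were 11 and 16 bases. The transporters Slc7a2 and Slc7a1 are closer, at 69.6% identity with a longest shared run of 23 bases.

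Arg1 and Arg2 were 67.3% identical, with a longest shared run of 12 bases. It lies in the following 54 coding bases, of which 38 are shared (capitals), at chr10:24916779-24916832 (minus) for Arg1 and chr12:79150769-79150822 (plus) for Arg2.
Arg1: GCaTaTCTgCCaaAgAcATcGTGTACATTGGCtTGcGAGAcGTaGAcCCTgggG
Arg2: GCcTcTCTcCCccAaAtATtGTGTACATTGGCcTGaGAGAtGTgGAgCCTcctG

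No stretch of 50 coding bases of Arg1, Nos2, Slc7a1, Slc7a2, Azin1 or Azin2 occurred in the transcripts of another gene. For Odc1, 68.3% of such stretches did, for Sms 100.0%, for Arg2 5.5% and for Srm 3.6%. The values of Odc1 and Sms are therefore uncertain, because the sources used here do not say how reads that match several genes were counted.

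In M2 cells, 5 of the 10 genes rose against control cells and 0 fell: Azin2, Arg1, Slc7a2, Srm and Slc7a1 (limma, Benjamini-Hochberg adjusted p under 0.05 over the 14207 genes tested). Of all genes tested, 6.88% were called higher and 5.75% lower, together 12.6%. The rises were of unequal size: the mean TPM was 11.8-fold higher for Arg1, 4.23-fold for Azin2, 3.28-fold for Slc7a2, 1.25-fold for Srm and 1.09-fold for Slc7a1. The Arg1 ratio rests on at most 5 recovered reads in a control library. Arg1 entered the test only through cytokine-treated libraries, because every control library was below the filter of 1 TPM. In counts of the 10 genes against control cells, Arg1 is therefore no independent support. Odc1, Sms, Azin1, Arg2 and Nos2 did not pass the test. In Q11 cells, 0 of the 10 genes differed from M2 cells by this test, and 3 of 10 (Azin2, Slc7a2 and Srm) were above control cells. With the separated reads, 4 of 10 (all but Slc7a1) were called higher in M2 cells than in control cells, where 5% of all genes were called higher and 4.35% lower, together 9.34%.

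**Figure D1:**
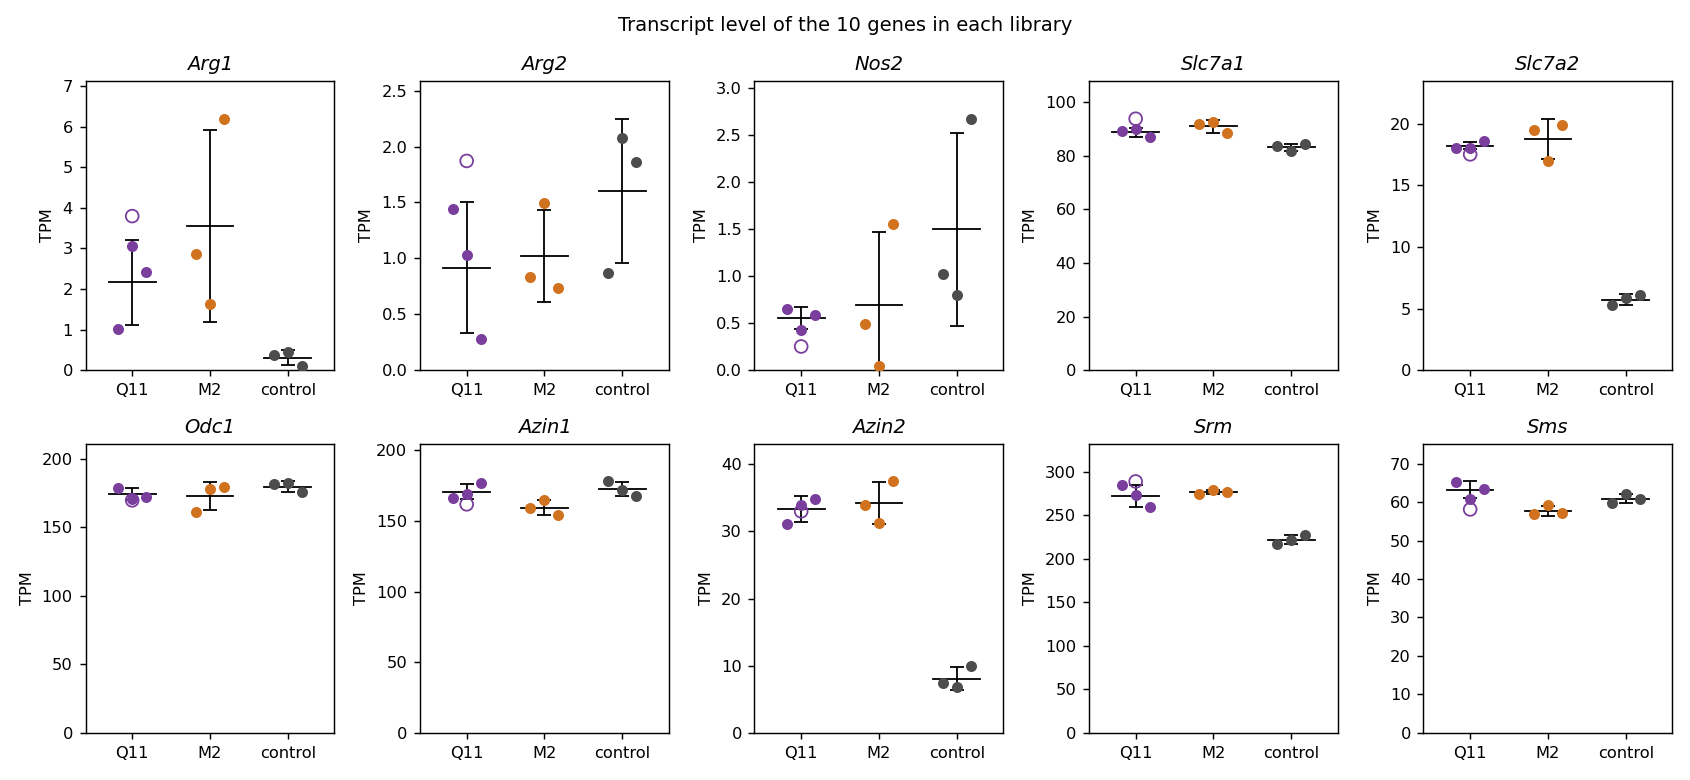
TPM of each gene in each library, with the Q11, M2 and control libraries from left to right, the group mean (line) and SD (bar, n = 3); the open circle is Q11 replicate 2 with separated reads. Azin2 and Slc7a2 lie far above the control libraries in all Q11 and M2 libraries, Srm lies moderately above them, and Odc1 overlaps between groups.

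Arginine is brought in by Slc7a1, the widely expressed cationic transporter (ENSMUSG00000041313, chr5:148327410-148399904, minus strand), and Slc7a2, its inducible relative (ENSMUSG00000031596, chr8:40862396-40922308, plus strand). Slc7a2 was at 18.1, 18.0 and 18.6 TPM in Q11 cells, 19.5, 16.9 and 19.9 TPM in M2 cells and 5.26, 5.84 and 6.10 TPM in control cells, from 233 to 1567 recovered reads a library. Both cytokine-treated groups lay above control cells in every library and overlapped with each other. On the log2(TPM + 1) scale, which understates changes of low genes, Slc7a2 was higher by 1.56 in M2 than in control cells (95% interval 1.38 to 1.73, adjusted p = 5.92e-06). The Slc7a2 difference was 1.52 between Q11 and control cells (1.35 to 1.69, adjusted p = 7.70e-06) and -0.04 between Q11 and M2 cells (-0.21 to 0.13, adjusted p = 0.871). Gm26584 overlaps exons of Slc7a2 on the opposite strand, and the sources used here do not say whether counting used strand.

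Slc7a1 was the more abundant transporter in every library. It was at 89.4, 90.0 and 86.9 TPM in Q11 cells, 92.0, 92.8 and 88.4 TPM in M2 cells and 83.7, 81.7 and 84.3 TPM in control cells. The M2 libraries all lay above the control libraries, by a small margin. The Slc7a1 difference between M2 and control cells was 0.13 on the log2 scale (0.06 to 0.20, adjusted p = 0.0251). This call was lost with the separated reads (adjusted p = 0.0662) and when any 1 control library, M2 replicate 1 or M2 replicate 2 was left out (adjusted p = 0.0508 to 0.0781). It was also lost with the replicate block (0.0569 as deposited and 0.116 separated) and with no mean-variance trend (0.0667). Between Q11 and control cells the difference was 0.09 (0.02 to 0.16, adjusted p = 0.0936) with no overlap, and between Q11 and M2 cells it was -0.04 (-0.10 to 0.03, adjusted p = 0.670). Limma-voom on the recovered reads called Slc7a1 in Q11 against control cells (adjusted p = 0.0384), but limma-voom with the separated reads did not.

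Slc7a2 made up 16.8%, 16.7% and 17.6% of the summed TPM of both transporters in Q11 cells, 17.5%, 15.4% and 18.4% in M2 cells and 5.91%, 6.68% and 6.74% in control cells. Thus Slc7a2 took a larger share in each cytokine-treated library than in any control library, and the Q11 and M2 shares overlapped. The exact two-sided permutation test of the share gave p = 0.1 for M2 against control cells and for Q11 against control cells, the smallest value that 3 libraries against 3 allow, and p = 1.0 for Q11 against M2 cells. The summed level of both transporters averaged 107.0 ± 1.35 TPM in Q11 cells, 109.9 ± 1.63 TPM in M2 cells and 88.9 ± 1.46 TPM in control cells (SD, n = 3). Q11 and M2 sums did not overlap as deposited but did overlap with the separated reads.

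Promoter windows were found in RefSeq (GRCm38.p6, from 250 bases before to 50 bases after a start) for 3 of the 10 genes, Slc7a1, Odc1 and Sms, with 5 windows in all. Both strands were searched for the STAT patterns of TTC and GAA with 4 or with 3 bases between them and for the E-box CACGTG, which 7.0%, 8.3% and 7.2% of 32851 promoter windows hold. Slc7a1, the only one of the 3 called in M2 cells, has 1 match with 3 bases between (TTCNNNGAA, capitals), starting 146 bases before the start site, in its downstream window at chr5:148392766-148393065 (minus strand).
Slc7a1: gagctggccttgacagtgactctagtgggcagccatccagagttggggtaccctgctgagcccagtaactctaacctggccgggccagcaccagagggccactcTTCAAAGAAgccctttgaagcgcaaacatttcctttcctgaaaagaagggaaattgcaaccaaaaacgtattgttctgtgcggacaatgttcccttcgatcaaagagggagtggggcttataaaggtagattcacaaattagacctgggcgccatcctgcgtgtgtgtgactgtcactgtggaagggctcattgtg
The other Slc7a1 window and the Odc1 window hold none of the 3 patterns, and 1 Sms window holds 1 CACGTG. A match describes the letters and is not a binding site.

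Arginine is then split or oxidised by enzymes whose transcripts were all scarce in J774A.1 cells. Arg1, the cytosolic arginase (ENSMUSG00000019987, chr10:24915221-24927484, minus strand), was at 1.02, 3.07 and 2.43 TPM in Q11 cells, 2.86, 1.63 and 6.20 TPM in M2 cells and 0.370, 0.444 and 0.0919 TPM in control cells. The recovered reads of Arg1 behind them numbered 11, 65 and 27 for Q11, 32, 17 and 66 for M2 and 4, 5 and 1 for control cells. Every cytokine-treated library was above every control library, and the M2 libraries were spread widely. The Arg1 difference between M2 and control cells was 1.69 on the log2(TPM + 1) scale (0.81 to 2.57, adjusted p = 0.0228). Leaving out control replicate 1 or 3 ended that call (adjusted p = 0.0588 and 0.0730), as did leaving out M2 replicate 1 or 3 (0.0570 and 0.0558) or applying no filter (0.0539), and it held with the separated reads (adjusted p = 0.0330) but not with a replicate block on them (0.0665).

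In Q11 cells Arg1 averaged 2.17 ± 1.05 TPM, against 3.56 ± 2.36 TPM in M2 cells and 0.302 ± 0.186 TPM in control cells (SD, n = 3). The log2 difference between Q11 and M2 cells was -0.46 with an interval of -1.34 to 0.42 (adjusted p = 0.675), so that a fall or a small rise both lie within it. Against control cells Arg1 was higher by 1.23 in Q11 cells (0.36 to 2.11), which missed the threshold (adjusted p = 0.0815). It passed without M2 replicate 3 (adjusted p = 0.0406), with a pseudocount of 0.1 TPM (0.0371) and with limma-voom on the recovered reads (0.0111). Limma-voom with the separated reads also called it.

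Arg2, the mitochondrial arginase (ENSMUSG00000021125, chr12:79130777-79156301, plus strand), was at 1.44, 1.03 and 0.280 TPM in Q11 cells, 0.836, 1.50 and 0.732 TPM in M2 cells and 0.866, 2.08 and 1.86 TPM in control cells. The 3 groups overlapped, and no comparison passed the test (adjusted p = 0.533 for M2 against control cells, 0.922 for Q11 against M2 cells and 0.432 for Q11 against control cells). With 2 to 15 recovered reads a library, the log2 interval for M2 against control cells ran from -1.06 to 0.36. Exons of Arg2 are overlapped on the opposite strand by Gm48780 and Vti1b.

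Nos2, which makes nitric oxide from arginine (ENSMUSG00000020826, chr11:78920787-78960254, plus strand), was at 0.650, 0.427 and 0.586 TPM in Q11 cells, 0.493, 0.0481 and 1.56 TPM in M2 cells and 1.02, 0.802 and 2.68 TPM in control cells. The Q11 libraries were below all control libraries, whereas M2 and control libraries overlapped. The log2 difference was -0.61 between Q11 and control cells (-1.48 to 0.25, adjusted p = 0.384), -0.58 between M2 and control cells (-1.45 to 0.29, adjusted p = 0.386) and -0.03 between Q11 and M2 cells (-0.90 to 0.83, adjusted p = 0.985). From 1 to 58 recovered reads a library stand behind the Nos2 values. Nos2 passed the filter of 1 TPM through control replicates 1 and 3 and M2 replicate 3 only. In counts of genes without overlap between Q11 and control cells, Nos2 is therefore no independent support.

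Ornithine is decarboxylated by Odc1, the first enzyme of polyamine synthesis (ENSMUSG00000011179, chr12:17544794-17551505, plus strand). Its level was 179, 171 and 172 TPM in Q11 cells, 161, 178 and 179.6 TPM in M2 cells and 181, 182 and 175 TPM in control cells, and all 3 groups overlapped. The Odc1 difference was -0.06 on the log2 scale between M2 and control cells (-0.16 to 0.04, adjusted p = 0.455), 0.01 between Q11 and M2 cells (-0.09 to 0.11, adjusted p = 0.943) and -0.05 between Q11 and control cells (-0.14 to 0.05, adjusted p = 0.592).

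Odc1 shares 439 of its 1334 coding stretches of 50 bases with Gm7993, which GENCODE lists as a processed pseudogene (ENSMUSG00000107092, chr5:95974240-95975623, plus strand). Gm7993 was listed at 154, 131 and 138 TPM in Q11 cells, 158, 143 and 139.7 TPM in M2 cells and 163, 166 and 146 TPM in control cells, a level near that of Odc1. Odc1 and Gm7993 summed to 314.8 ± 16.1 TPM in Q11 cells, 319.7 ± 0.931 TPM in M2 cells and 337.9 ± 14.8 TPM in control cells (SD, n = 3). The M2 sums lay below the control sums by a small margin without overlap, the Q11 sums overlapped with both, and the exact two-sided permutation test gave p = 0.1 for M2 against control cells, 0.2 for Q11 against control cells and 0.7 for Q11 against M2 cells. The 9 genes that share at least 100 stretches with Odc1 held 44.9% to 50.7% of the TPM of Odc1 and those genes together.

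The antizyme inhibitor Azin2 (ENSMUSG00000028789, chr4:128930233-128962442, minus strand), also named in older work as an arginine decarboxylase, was at 31.2, 33.9 and 34.9 TPM in Q11 cells, 33.9, 31.2 and 37.4 TPM in M2 cells and 7.38, 6.88 and 9.97 TPM in control cells. The control libraries lay far below the other 6, and Q11 and M2 libraries overlapped. The Azin2 difference between M2 and control cells was 1.97 on the log2 scale (1.69 to 2.24, adjusted p = 2.18e-05), the 10th largest rise of 14207 genes. It was 1.93 between Q11 and control cells (1.66 to 2.21, adjusted p = 2.50e-05) and -0.03 between Q11 and M2 cells (-0.31 to 0.24, adjusted p = 0.941). Among the M2 rises Arg1 ranked 26th and Slc7a2 38th on this scale. The order turns with the pseudocount: with 0.1 TPM the log2 difference was 3.12 for Arg1 and 2.08 for Azin2.

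Azin1 (ENSMUSG00000037458, chr15:38487427-38519266, minus strand), the other antizyme inhibitor, did not pass the test in any comparison. It was at 166, 169.5 and 177 TPM in Q11 cells, 159, 165 and 154 TPM in M2 cells and 178, 172 and 168 TPM in control cells. The M2 libraries lay below all Q11 and all control libraries. The Azin1 difference was -0.11 between M2 and control cells (-0.20 to -0.03, adjusted p = 0.0779), 0.10 between Q11 and M2 cells (0.02 to 0.18, adjusted p = 0.379) and -0.01 between Q11 and control cells (-0.10 to 0.07, adjusted p = 0.859), so no call was made. With limma-voom on the recovered reads, the M2 difference was called (adjusted p = 0.0228). With the separated reads, Q11 replicate 2 was at 162 TPM and the Q11 and M2 libraries overlapped. As with Slc7a2, a gene on the opposite strand (Gm49077) overlaps exons of Azin1.

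Azin2 accounted for 15.8%, 16.7% and 16.5% of the summed TPM of both inhibitors in Q11 cells, 17.6%, 15.9% and 19.5% in M2 cells and 3.98%, 3.84% and 5.61% in control cells. The share was larger in each cytokine-treated library than in any control library (exact two-sided permutation p = 0.1 for M2 and for Q11 cells against control cells), and Q11 and M2 shares overlapped (p = 0.3). Azin1 and Azin2 together averaged 204 ± 7.22 TPM in Q11 cells, 194 ± 2.28 TPM in M2 cells and 181 ± 4.09 TPM in control cells (SD, n = 3). Those sums did not overlap between any 2 groups as deposited, and the Q11 and M2 sums overlapped with the separated reads.

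Antizymes are the partners that both inhibitors bind. Oaz1, the main antizyme, averaged 427 ± 16.0 TPM in Q11 cells, 434 ± 12.2 TPM in M2 cells and 420 ± 5.37 TPM in control cells, with adjusted p = 0.411 for M2 against control cells. Oaz2 averaged 43.5 ± 0.911 TPM in Q11 cells, 44.0 ± 2.15 TPM in M2 cells and 48.2 ± 0.958 TPM in control cells, with adjusted p = 0.0579 for Q11 and 0.0754 for M2 against control cells. Neither group overlapped with control cells for Oaz2. Its fall in Q11 against control cells was called with a filter of 5 TPM, quantile normalization, and without M2 replicate 1 or 2. In M2 against control cells Oaz2 was called without M2 replicate 2. Oaz3 was at 0.143 to 0.690 TPM over all libraries and was not tested. Inhibitor TPM per antizyme TPM was 0.403, 0.442 and 0.458 in Q11 cells, 0.400, 0.420 and 0.395 in M2 cells and 0.395, 0.378 and 0.385 in control cells. The ratio was above control cells in every Q11 library (exact two-sided permutation p = 0.1), while M2 libraries overlapped with both other groups (p = 0.2 against each).

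**Figure D2:**
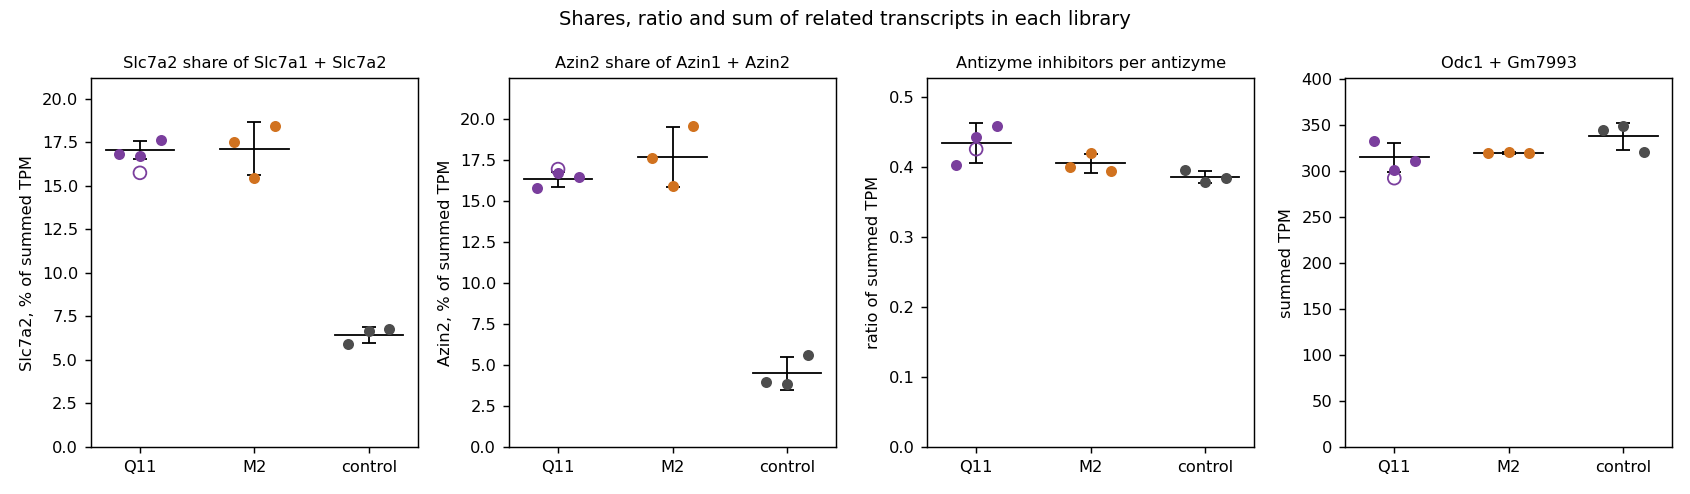
Share of Slc7a2 and of Azin2 in its transporter or inhibitor pair, ratio of summed antizyme inhibitor to summed antizyme TPM, and summed Odc1 and Gm7993 TPM, by library, with mean and SD (n = 3) in Q11, M2 and control cells from left to right; the open circle is Q11 replicate 2 with separated reads. The 2 shares are higher in all Q11 and M2 libraries than in all control libraries. As deposited, the antizyme ratio lies between 0.378 and 0.458 and the Odc1 sums lie between 301 and 348 TPM. With separated reads, the Odc1 sum of Q11 replicate 2 is 292 TPM.

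Spermidine synthase rose moderately. Srm (ENSMUSG00000006442, chr4:148591503-148594993, plus strand) was at 285, 273 and 259.9 TPM in Q11 cells, 275, 279 and 277 TPM in M2 cells and 217, 222 and 228 TPM in control cells. Every cytokine-treated library exceeded every control library. The Srm difference was 0.32 between M2 and control cells (0.24 to 0.40, adjusted p = 5.62e-04), 0.29 between Q11 and control cells (0.21 to 0.37, adjusted p = 9.88e-04) and -0.02 between Q11 and M2 cells (-0.10 to 0.05, adjusted p = 0.821).

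Spermine synthase did not pass the test in any comparison. Sms (ENSMUSG00000071708, chrX:157443855-157492287, minus strand) was at 65.2, 60.8 and 63.5 TPM in Q11 cells, 57.0, 59.2 and 57.1 TPM in M2 cells and 59.7, 62.2 and 60.8 TPM in control cells. The M2 libraries lay below all Q11 and control libraries by a small margin. The Sms difference was 0.13 between Q11 and M2 cells (0.05 to 0.21, adjusted p = 0.317), -0.08 between M2 and control cells (-0.16 to 0.00, adjusted p = 0.217) and 0.05 between Q11 and control cells (-0.03 to 0.13, adjusted p = 0.433). Of 4 copies elsewhere in the genome that share at least 100 stretches with Sms, only 3 have values here. Those 3 held 0.658% to 2.24% of the TPM of Sms and the copies together. Sms-ps shares 1049 of the 1049 coding stretches of Sms, and how reads of such copies were counted is not known. With the separated reads, Q11 replicate 2 fell within the M2 range at 58.1 TPM, and the Q11 against M2 difference was 0.11 (0.001 to 0.21, adjusted p = 0.611).

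**Figure D3:**
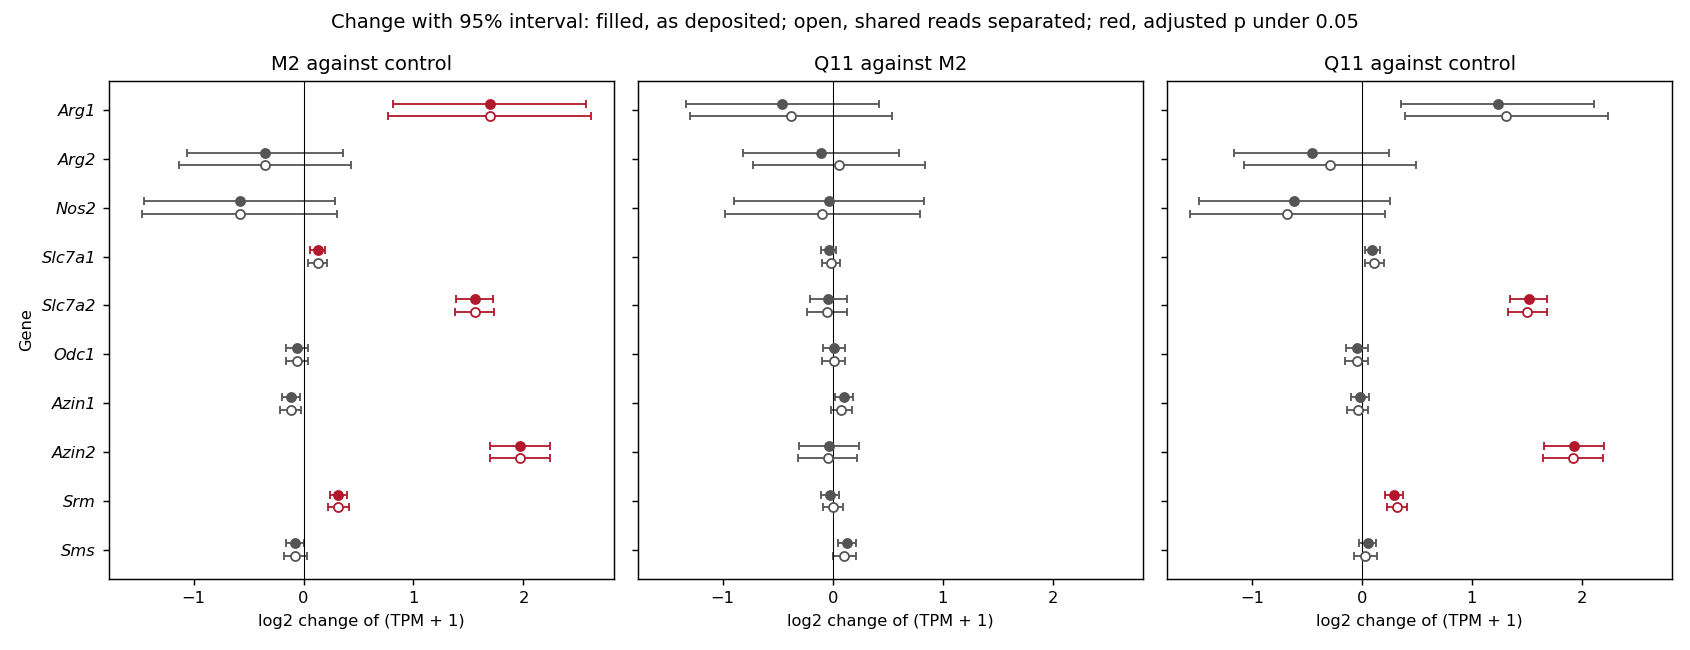
Log2 change of TPM + 1 with its 95% interval for each gene in the comparisons of M2 with control, Q11 with M2 and Q11 with control cells, filled as deposited and open with separated reads, red where the adjusted p is under 0.05. Azin2 (1.97) and Arg1 (1.69) lie farthest right in M2 against control cells on this scale, and every Q11 against M2 point is uncoloured.

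The libraries of both groups did not overlap for 7 of the 10 genes between M2 and control cells (28.4% of all genes), for 6 of 10 between Q11 and control cells (32.1%) and for 2 of 10, Azin1 and Sms, between Q11 and M2 cells (17.6%). With the separated reads these were 7 of 10 (28.7%), 6 of 10 (26.8%) and 0 of 10 (12.7%). Against control cells, 3 of 10 genes were called higher in Q11 cells where 5.19% of all genes were and 0 of 10 lower where 5.53% were, together 10.7%. The same 3 genes were called higher with the separated reads, where 3.9% of all genes were called higher and 4.08% lower, together 7.98%. The median log2 change over the 10 genes was 0.04 between M2 and control cells, -0.03 between Q11 and M2 cells and 0.07 between Q11 and control cells, beside 0.00 for all genes in each comparison. Each pair of these comparisons shares a group of libraries, so their directions are not independent.

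Between Q11 and M2 cells, limma called 0 of 14207 genes (0%), with 1620 genes at an unadjusted p under 0.05 and a smallest adjusted p of 0.213. With the separated reads the count was again 0 (0%), with 1137 genes at an unadjusted p under 0.05. Some alternatives called a few genes: 2 higher and 1 lower with no filter (smallest adjusted p = 4.67e-04), 2 higher with no mean-variance trend (1.43e-06), 1 higher and 1 lower with limma-voom on the recovered reads (0.0102) and without M2 replicate 1 (0.0467), and 1 higher without control replicate 3 (0.00870). None of these calls was one of the 10 genes or of the wider list. The closest of the 10 genes was Sms (unadjusted p = 0.00581). A difference as large as the M2 rises of Azin2, Slc7a2 and Srm over control cells lay outside the Q11 against M2 intervals of these genes.

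**Figure D4:**
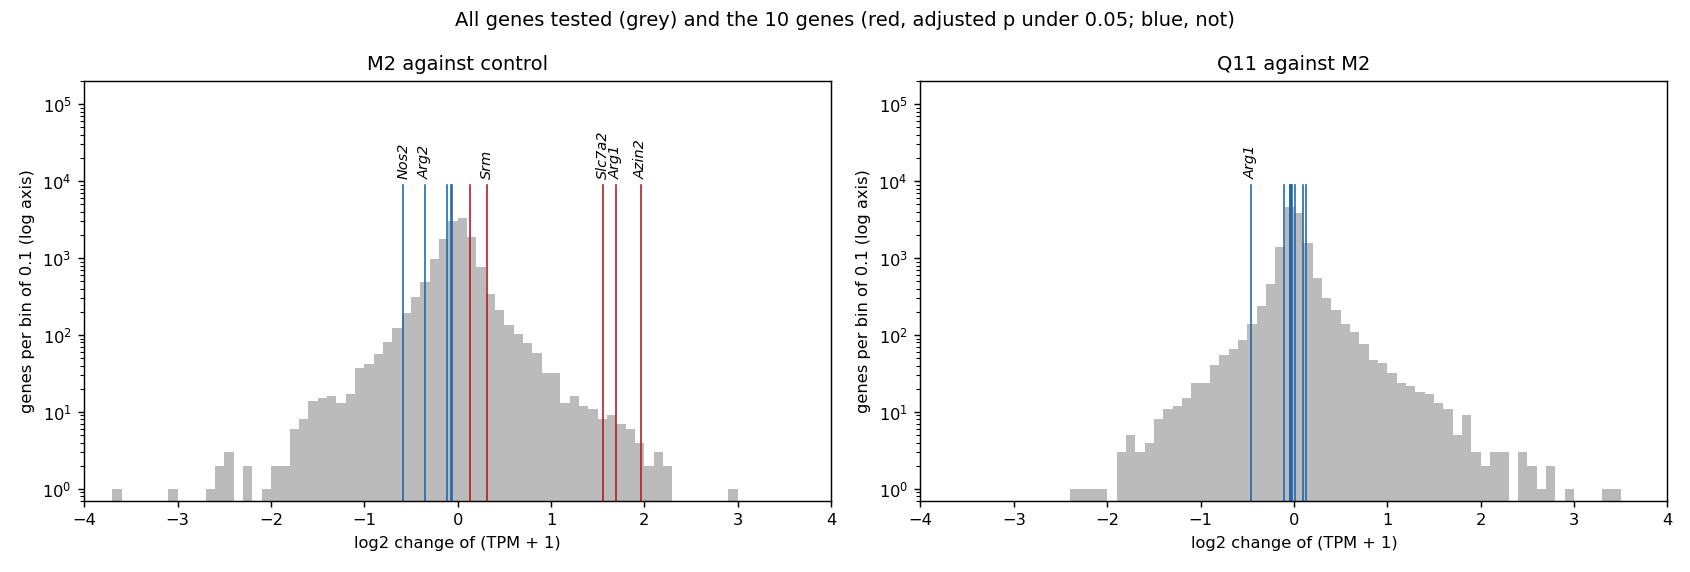
Number of genes (log axis) by log2 change of TPM + 1 in bins of 0.1 for M2 against control and Q11 against M2 cells, with the 10 genes as vertical lines, red if the adjusted p is under 0.05 and blue otherwise. In M2 against control cells Azin2, Arg1 and Slc7a2 lie in the right tail, and in Q11 against M2 cells the 10 genes lie between -0.46 and 0.13.

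The surrounding pathway was read from a list of 48 genes for antizymes, S-adenosylmethionine supply, polyamine breakdown and transport, hypusine, the citrulline and proline branches and other arginine uses. Of these, 45 were matched and 39 passed the filter. In M2 against control cells, 6 of 39 rose, where 6.88% of all genes did, and 3 of 39 fell, where 5.75% did, with a median log2 change of 0.07. The rises were Gatm, Prmt1, Eif5a, Spr, Ahcy and Atp13a2, and the falls were Ass1, Sat1 and Ckb.

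Gatm, which uses arginine in creatine synthesis, averaged 221 ± 3.30 TPM in M2 cells and 162 ± 7.96 TPM in control cells (SD, n = 3), a log2 difference of 0.45 (adjusted p = 1.22e-04). Eif5a, the factor that carries the spermidine-derived hypusine, averaged 1920.5 ± 18.3 TPM in M2 cells and 1627 ± 24.7 TPM in control cells, a log2 difference of 0.24 (adjusted p = 3.63e-04). Ass1, which rebuilds arginine from citrulline, averaged 95.9 ± 5.93 TPM in M2 cells and 124 ± 2.93 TPM in control cells, a log2 difference of -0.37 (adjusted p = 0.00133). Sat1, the enzyme that acetylates spermidine and spermine for breakdown or export, averaged 72.1 ± 1.73 TPM in M2 cells and 87.0 ± 5.13 TPM in control cells, a log2 difference of -0.27 (adjusted p = 0.00770).

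Smaller rises were those of Prmt1, an arginine methyltransferase (log2 difference 0.27, adjusted p = 0.0115), Spr, an enzyme of tetrahydrobiopterin synthesis (0.19, adjusted p = 0.00800), and Ahcy, which clears S-adenosylhomocysteine (0.18, adjusted p = 0.00997). Atp13a2, a lysosomal polyamine exporter, rose by 0.15 (adjusted p = 0.0340), a call lost with the separated reads (adjusted p = 0.0924). It was also lost with no filter (0.0647), quantile normalization (0.0820), no trend (0.0879) and the replicate block (0.0797 as deposited and 0.160 separated). Leaving out any 1 control library, M2 replicate 1 or 3, or Q11 replicate 3 ended it too (adjusted p = 0.0541 to 0.111). Ckb, a creatine kinase, fell by 0.16 on the log2 scale (adjusted p = 0.0133), a call lost with no trend (0.0503). The replicate block with separated reads ended the calls of Prmt1 (adjusted p = 0.0539) and Sat1 (0.0648). Without M2 replicate 2 the number called grew to 14 of 39, and limma-voom on the recovered reads called 15.

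In Q11 against M2 cells 0 of 39 were called, with a median of -0.05. Groups did not overlap for 8 of 39 genes, against 17.6% of all genes, and for 6 of 39 with the separated reads, against 12.7%. In Q11 against control cells, 4 of 39 rose (Gatm, Slc7a6, Eif5a and Spr), where 5.19% of all genes did, and 6 of 39 fell (Ass1, Slc7a7, Sat1, Gch1, Smox and Ckb), where 5.53% did. Gatm averaged 227 ± 4.66 TPM in Q11 cells and 162 ± 7.96 TPM in control cells, a log2 difference of 0.48 (adjusted p = 8.06e-05). Ass1 averaged 89.8 ± 2.76 TPM in Q11 cells and 124 ± 2.93 TPM in control cells, a log2 difference of -0.46 (adjusted p = 4.01e-04). Both genes thus moved in the same direction in both cytokine-treated groups, which share the control libraries.

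Sat1 averaged 72.0 ± 2.67 TPM in Q11 cells and 87.0 ± 5.13 TPM in control cells, and Smox, spermine oxidase, averaged 135 ± 1.69 TPM in Q11 cells and 160.0 ± 12.0 TPM in control cells. The log2 differences were -0.27 for Sat1 (adjusted p = 0.00789) and -0.24 for Smox (adjusted p = 0.0293). Of the transporters of the list, Slc7a6, a cationic amino acid exchanger, rose by 0.19 (adjusted p = 0.00978) and its relative Slc7a7 fell by 0.32 on the log2 scale (adjusted p = 0.0218). Gch1, the first enzyme of tetrahydrobiopterin synthesis, fell by 0.26 on the log2 scale (adjusted p = 0.0365), which was lost with the separated reads (adjusted p = 0.0568). The number called dropped to 6 of 39 without control replicate 1 or without any 1 Q11 library. The Smox and Slc7a7 calls ended without control replicate 1, control replicate 3 or any 1 Q11 library (adjusted p = 0.0661 to 0.0949 for Smox and 0.0546 to 0.0856 for Slc7a7), and Smox also with no filter (0.0626) or no trend (0.0705) and Slc7a7 with the replicate block (0.0559). Without any 1 control or Q11 library the Gch1 call ended (adjusted p = 0.0630 to 0.125), and without control replicate 1 or any 1 Q11 library that of Spr (0.0506 to 0.0851). No trend ended both calls (0.0680 for Gch1 and 0.0657 for Spr). Gch1 was also lost with no filter (0.0690) and the replicate block (0.0773). The block with separated reads ended the calls of Slc7a6 (0.0674), Slc7a7 (0.110), Gch1 (0.106) and Spr (0.0612).

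**Figure D5:**
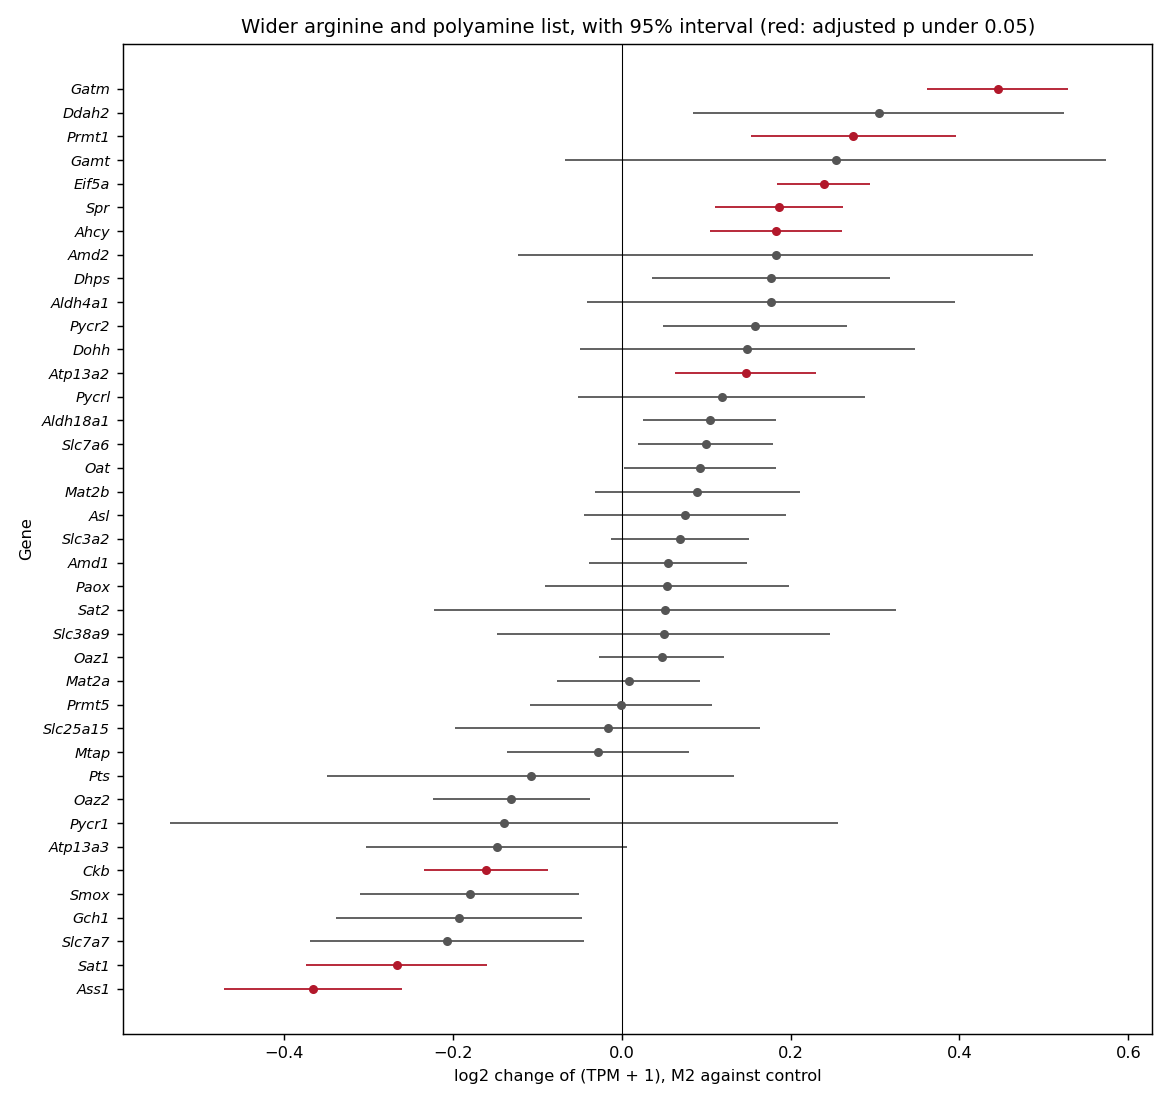
Log2 change of TPM + 1 with its 95% interval in M2 against control cells for the 39 tested genes of the wider list, red where the adjusted p is under 0.05. Gatm (0.45) is the highest red point and Ass1 (-0.37) the lowest.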

How the data were processed

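The authors deposited TPM per gene for 9 poly-A RNA libraries in 1 table, and each column sums to 1000000. Per the submitters' processing notes, HISAT2 2.0.5, StringTie 1.3.3b and GRCm38 were used, while annotation release and counting settings are not given in the sources used here. GENCODE M21 held 25594 of 26157 gene IDs (97.8%) and gave positions, exon lengths and coding sequences. TPM multiplied by exon length gave whole reads for 98.8% to 99.1% of values up to 20 reads, within 0.1 read. Genes that reached 1 TPM in 3 or more of 9 libraries were tested as log2(TPM + 1), with 1 mean per group over all 9 libraries. The fit used limma 3.58.1 and R 4.3.3 (trend, 6 residual and a median of 2.85 prior degrees of freedom, two-sided, Benjamini-Hochberg, threshold 0.05). It was also run on simulated independent libraries without shared reads, which does not test it for the spread or shared reads of these data. Sums and shares were tested by exact permutation over libraries in Python 3.11.15 with scipy 1.17.1. Members, lists and fit were chosen with earlier results of these data known. All 10 members are named, with the antizymes and up to 6 rises and 6 falls of the wider list per comparison; 3 of its 48 genes are not analysed here. Intervals are 95% and cover the spread between libraries. Alternatives were the pseudocount, the filter, quantile normalization, no trend, a replicate block, separated reads, limma-voom and leaving out each library. Limma-voom and the block with separated reads, and the Odc1 and Gm7993 sum, were added after seeing the data. The sums of both transporters and of both inhibitors were not among the planned shares and ratio.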

Additional observations from a re-analysis of the deposited data

How the results depend on the processing

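Azin2, Slc7a2 and Srm kept their direction and their call in M2 and in Q11 against control cells under all 19 alternatives (adjusted p up to 0.00833 and 0.00908). The number of the 10 genes called in M2 against control cells ranged from 3 to 5 when 1 library was left out and in Q11 against control cells from 3 to 4. Limma-voom on the recovered reads gave 5 in Q11 against control cells. In M2 against control cells it gave 5 higher and 1 lower (Azin1). Replicate numbers gave no clear sign of pairing. Over the genes tested, deviations of same-numbered libraries from their group means correlated at -0.031 to 0.036 as deposited and -0.053 to 0.03 separated. As deposited, at most 2 of 6 libraries had their best such correlation with their own number. These values cannot exclude a weak pairing. The replicate block gave 4 called in M2 against control, 0 in Q11 against M2 and 3 in Q11 against control cells, and the block with separated reads gave 3 in M2 against control cells. No result that passed the threshold changed sign. Uncalled log2 differences that reversed were as follows. Between Q11 and M2 cells, Nos2 reversed to 0.2994 (pseudocount 0.1), 0.4432 (limma-voom), 0.3112 (limma-voom, separated) and 0.0274 (without Q11 replicate 2), within -0.3323 to 0.0274 when 1 library was left out. Arg2 reversed to 0.0593 (separated, with or without the block) and to 0.0545 and 0.1592 (without M2 replicate 2 or Q11 replicate 3; range -0.3066 to 0.1592). Srm reversed to 0.0007 (quantile normalization), 0.0032 (separated, with or without the block), 0.0019 (limma-voom, separated) and 0.0101 (without Q11 replicate 3; range -0.0557 to 0.0101). Without 1 library, Azin2 reversed to 0.0319 and 0.0122 (range -0.0955 to 0.0319), Slc7a2 to 0.0029 (-0.1077 to 0.0029), Odc1 to -0.0387 and -0.0083 (-0.0387 to 0.0407), and Oaz2 to 0.0205 and 0.0026 (-0.0484 to 0.0205). Oaz1 reversed to 0.0128 under quantile normalization, and to -0.0002 between M2 and control cells. Between Q11 and control cells without 1 library, Oaz1 reversed to -0.0067 (-0.0067 to 0.041) and Azin1 to 0.0072 and 0.0046 (-0.04 to 0.0072). The cause was not tested. A filter of 5 TPM left 7 of the 10 genes, without Arg1, Arg2 and Nos2, whose few reads limit what can be seen.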
